A study of Homo sapiens with 16 samples.

Results

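The 10 genes described here encode subunits of the cohesin and condensin complexes, and they were taken by symbol from a table of RNA-seq read counts in H1299 cells. All 10 symbols were found, among 12676 genes in the table. Of these, 3 encode cohesin (SMC1A, SMC3 and RAD21) and 7 encode condensin (SMC2, SMC4, NCAPD2, NCAPG, NCAPH, NCAPD3 and NCAPG2). H1299 is an established human non-small cell lung cancer line. Both groups of cells carried a pLKO lentiviral vector, introduced with polybrene at 8 µg per ml. After 48 h with virus they were selected with puromycin at 2 µg per ml. Selection lasted 4 to 7 days according to the labels, whereas the paper's methods give 3 to 4 days. The shNT group expressed a non-targeting shRNA and the shYEATS2 group an shRNA against YEATS2, with 2 libraries in each. These are selected cells of a single line, and the labels do not say which YEATS2 shRNA was used. The paper describes its duplicate RNA-seq as made with a single efficient YEATS2 shRNA. It also reports RNA-seq with an independent shRNA that depleted YEATS2 partially. Without libraries of another hairpin here, effects of the hairpin and of the lost protein cannot be told apart. The comparison asks which genes change when YEATS2, a histone-acetylation reader of the ATAC acetyltransferase complex, is depleted.

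Cohesin and condensin are ring-shaped complexes built on pairs of SMC ATPases, whose rings are closed by a kleisin subunit. Cohesin, with SMC1A, SMC3 and the kleisin RAD21, holds sister chromatids together from S phase to anaphase and extrudes the chromatin loops that are halted at CTCF sites. Condensin compacts chromosomes for mitosis. Condensin I and condensin II share SMC2 and SMC4 and differ in the kleisin and in the HEAT-repeat subunits, which are NCAPH, NCAPD2 and NCAPG in condensin I and NCAPH2, NCAPD3 and NCAPG2 in condensin II.

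The libraries held between 34718921 and 39417787 reads in the listed genes, and each listed gene had over 100 reads in at least 1 library. YEATS2 itself had normalised read counts of 4482 and 4104 in control cells and of 665 and 673 after knockdown, a log2 fold change of -2.68 ± 0.10 (SE). The gene (ENSG00000163872) lies on chromosome 3 of GRCh37 from 183415585 to 183530412. Of the carcinoma markers checked, KRT8, KRT18 and VIM were listed and KRT19 was not. None of 3 endothelial markers and 1 of 5 blood cell markers was listed, the latter being ITGAM, with 231 and 136 normalised reads in shNT and 426 and 507 in KD libraries (log2 fold change 1.35, FDR 0.00613). KRT8, KRT18 and VIM had log2 fold changes of 0.31, -0.81 and -0.37, with FDR values of at least 0.0283, and the part of these markers in the results was not tested. Counts were normalised by the TMM method of edgeR and scaled to the mean library size, and genes were called at a false discovery rate (FDR) under 0.01. The FDR is the Benjamini-Hochberg adjusted p over all 12676 genes from the quasi-likelihood test of edgeR. FDR values below come from that test unless another is named. The study describes its duplicates as biological replicates.

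All 7 condensin genes were lower in YEATS2 knockdown (KD) cells, whereas of the 3 cohesin genes only RAD21 was called. Thus 8 of the 10 genes were called lower, where 12.5% of all genes tested were, and none was called higher, where 12.9% of all genes were. RAD21 (log2 fold change -0.51, FDR 0.00931) and SMC3 (-0.48, FDR 0.0102) changed by similar amounts and stood on either side of the threshold. With library totals in place of TMM, 1166 genes of the table were lower and 2363 higher, against 1581 and 1630, and the median change over the table moved from -0.0019 to 0.12 on the log2 scale. All 10 genes kept a negative value under each scaling tried. Their median log2 fold change was -0.89, with -1.19 for condensin and -0.48 for cohesin. In 9 of the 10 genes both KD libraries lay below both shNT libraries, which was so for 39.8% of all genes. In bulk RNA, fewer cells that express a gene and less RNA per cell cannot be told apart.

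**Figure D1:**
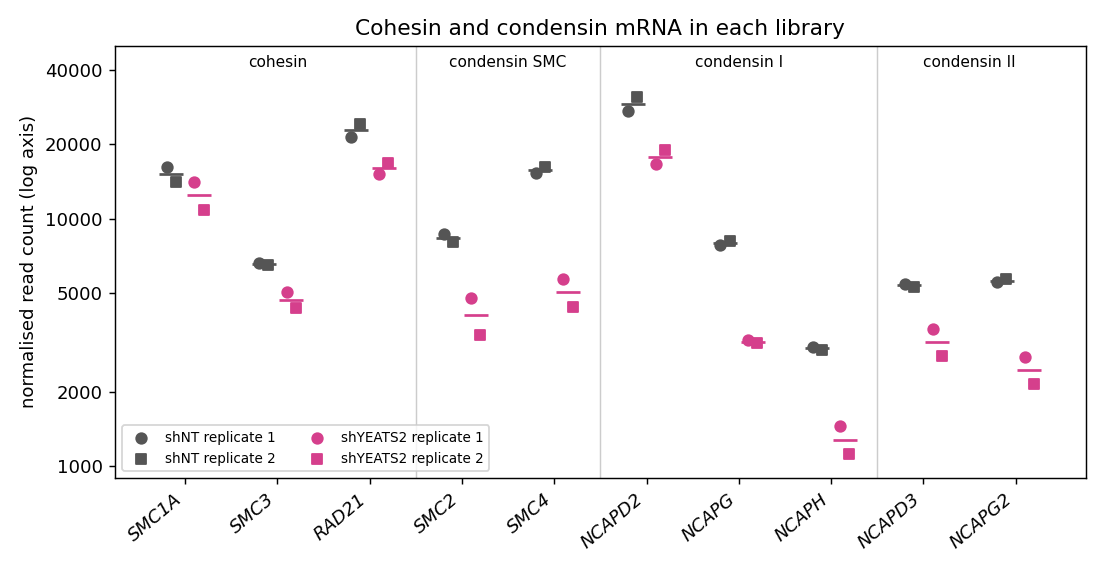
Normalised read counts (log axis) of the 10 subunit genes in each of the 4 libraries, with horizontal lines at the group means and grey lines between complexes. The shYEATS2 points sit below both shNT points for every gene except SMC1A, where shYEATS2 replicate 1 and shNT replicate 2 are level, and the widest gap is at SMC4, between 15751 and 5071 reads on average.

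The SMC ATPases of condensin fell the furthest in the case of SMC4. The shNT libraries held 15261 and 16241 normalised reads of SMC4, the KD libraries 5718 and 4424. The groups did not overlap, and 67.8% of the mean level was lost, from 15751 ± 693 to 5071 ± 915 (SD, n = 2). The log2 fold change was -1.64 ± 0.14 (SE, FDR 0.00092). SMC4 (ENSG00000113810) lies on chromosome 3 of GRCh37 from 160117062 to 160152742. Its partner SMC2 (ENSG00000136824, chromosome 9 from 106856541 to 106903700) had 8652 and 8074 reads in shNT and 4813 and 3401 reads in KD cells. SMC2 was thus also lower in both KD libraries, with KD replicate 2 below replicate 1, and the log2 fold change was -1.03 ± 0.16 (SE, FDR 0.0038). Of the annotated exon bases of SMC4, 22.0% are shared with IFT80 and TRIM59 on the other strand, where reads can be lost or credited to either gene. TRIM59 and IFT80 were lower too, with log2 fold changes of -0.67 and -0.64 and FDR values of 0.00234 and 0.00912, and the part of the shared bases in the fall of SMC4 was not tested.

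All 3 subunits particular to condensin I were called lower. The HEAT-repeat subunit NCAPG had 7845 and 8138 reads in shNT cells against 3240 and 3144 reads in KD cells, which leaves no overlap and a fall of 60.1% in the mean. The log2 fold change was -1.32 ± 0.09 (SE, FDR 0.000793). NCAPG (ENSG00000109805) lies on chromosome 4 from 17812602 to 17846488, and 33.7% of its annotated exon bases are shared with LCORL on the other strand. LCORL did not pass the test (log2 fold change -0.12, FDR 0.395). The kleisin NCAPH (ENSG00000121152, chromosome 2 from 97001504 to 97042829) had 3045 and 2949 reads in shNT and 1450 and 1118 reads in KD libraries. Its level fell by 57.1%, with a log2 fold change of -1.22 ± 0.14 (SE, FDR 0.00137). NCAPD2, the other HEAT-repeat subunit, had the most reads of the 10. It had 27249 and 31114 reads in shNT and 16673 and 19000 reads in KD libraries, higher in replicate 2 of both groups. The log2 fold change of NCAPD2 (ENSG00000010292, chromosome 12 from 6602522 to 6641121) was -0.71 ± 0.12 (SE, FDR 0.00388). Without shNT replicate 2 it was -0.61 with an FDR of 0.0205, no longer under the threshold.

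The condensin II subunits fell as well. NCAPG2 (ENSG00000146918, chromosome 7 from 158423861 to 158497495) had 5572 and 5696 reads in shNT and 2774 and 2150 reads in KD cells. Its KD libraries were both under the shNT libraries, and the log2 fold change was -1.19 ± 0.13 (SE, FDR 0.00141). NCAPD3 (ENSG00000151503, chromosome 11 from 134020008 to 134095398) had 5470 and 5304 reads in shNT and 3578 and 2800 reads in KD cells. It fell by 40.8% on average, with a log2 fold change of -0.76 ± 0.13 (SE, FDR 0.00478). Of its annotated exon bases, 11.95% are shared with genes on the other strand, JAM3 and VPS26B among them. Without shNT replicate 1 the value of NCAPD3 was -0.74 and its FDR was 0.0131. The kleisin of condensin II, NCAPH2, is not among the 10 genes but completes the complex. It fell from 2294 ± 106 to 1162 ± 190 reads (SD, n = 2), a log2 fold change of -0.98 with an FDR of 0.00214, and 27.2% of its annotated exon bases are shared with neighbouring genes. MCPH1, microcephalin, a known restraint on condensin II, did not pass the test, with 729 ± 12.6 reads in shNT and 775 ± 91.6 reads in KD cells (SD, n = 2).

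**Figure D2:**
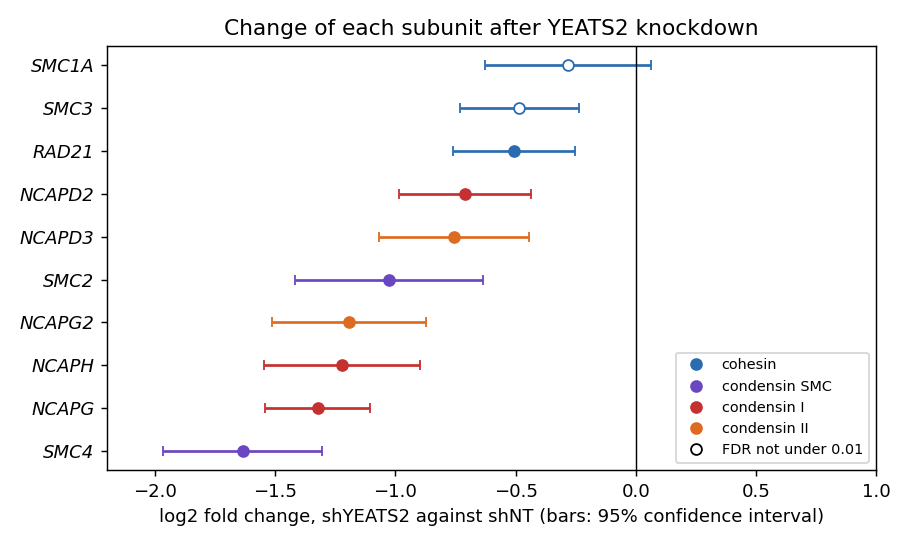
Log2 fold change of each of the 10 subunit genes in shYEATS2 against shNT cells, ordered by size, with 95% confidence intervals from edgeR's quasi-likelihood fit and colours for the complexes. Values run from -0.28 for SMC1A to -1.64 for SMC4, the 3 cohesin genes stand closest to 0, and the open circles mark SMC1A and SMC3, which were not called.

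The promoters of the subunit genes, called or not, were searched for motifs known from cell cycle genes. RAD21 had no sequence among those used and was not searched. Whether these motifs are bound in these cells, or have a part in the changes, was not tested. The sequences come from RefSeq on GRCh38.p14 and run from 250 bases before to 50 bases after each annotated start. The core of the cell cycle genes homology region (CHR), TTTGAA, is the element through which the DREAM and MMB complexes regulate G2/M genes. On either strand, TTTGAA was present in 7 of the 9 genes for which a window was found, namely SMC2, SMC4, NCAPD2, NCAPD3, NCAPG, NCAPG2 and SMC3. It was present in 15.2% of all windows and in 13.3% of the 9085 tested genes with a window. Some genes have several windows, and a gene was counted if any of them held the letters. The full upstream part is shown for SMC4 and NCAPG, which fell and hold TTTGAA, and for NCAPH, which fell without a TTTGAA in its window. For a gene with several windows, the one shown was its first with TTTGAA, if any had it. Distances of matches are counted from the annotated start of the window that holds them. Capitals mark TTTGAA or its reverse complement TTCAAA and, in NCAPH, the CCAAT box.
SMC4, chr3:160399400-160399649, plus strand: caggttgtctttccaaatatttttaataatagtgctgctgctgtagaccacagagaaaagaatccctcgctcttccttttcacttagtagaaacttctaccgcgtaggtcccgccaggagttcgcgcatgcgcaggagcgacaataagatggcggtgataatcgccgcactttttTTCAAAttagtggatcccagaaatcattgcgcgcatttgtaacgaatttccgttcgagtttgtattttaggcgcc
NCAPG, chr4:17810729-17810978, plus strand: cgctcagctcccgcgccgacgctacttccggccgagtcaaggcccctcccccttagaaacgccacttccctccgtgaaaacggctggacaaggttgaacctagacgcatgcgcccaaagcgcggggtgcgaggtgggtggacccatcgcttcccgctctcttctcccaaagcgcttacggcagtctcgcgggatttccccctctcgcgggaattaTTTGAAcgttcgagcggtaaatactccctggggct
NCAPH, chr2:96335516-96335765, plus strand: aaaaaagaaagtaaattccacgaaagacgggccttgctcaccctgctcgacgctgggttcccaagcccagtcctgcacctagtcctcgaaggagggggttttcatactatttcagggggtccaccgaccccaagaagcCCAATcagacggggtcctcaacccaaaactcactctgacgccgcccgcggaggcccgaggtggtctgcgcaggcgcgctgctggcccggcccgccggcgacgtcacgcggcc

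In SMC4 the match began 75 bases and in NCAPG 35 bases before the start. In the other genes it began 3 bases before the start for SMC2 and NCAPD3, 145 bases before it for NCAPD2, 151 bases before it for SMC3 and at base 36 after it for NCAPG2, so the position was not shared. The bases around these matches are shown with the 6 letters in capitals.
SMC2, chr9:104094294-104094323, plus strand: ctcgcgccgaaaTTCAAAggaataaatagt
NCAPG2, chr7:158704755-158704781, minus strand: ccggcgggtgcgTTTGAAtctggtccg
NCAPD3, chr11:134223953-134223982, minus strand: gcgggagcgagcTTTGAAagttgagcacgg
NCAPD2, chr12:6493945-6493974, plus strand: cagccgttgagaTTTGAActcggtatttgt
SMC3, chr10:110567532-110567561, plus strand: cagaattctagaTTCAAAagaaatccacca

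The CCAAT box, the NF-Y recognition element that accompanies many CHR promoters, was present on either strand in 3 of the 9 genes, NCAPH, NCAPD2 and NCAPD3, and in 43.7% of the tested genes with a window. NCAPD2 held 4 copies. The E2F-type letters TTTCCCGC, again on either strand, were present in SMC1A and NCAPD3 and in 3.34% of the tested genes with a window. The gene with TTTGAA that did not pass the FDR threshold was SMC3, and NCAPH was the called gene with a window that lacked it.

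The cohesin values were closer to 0, and 1 of the 3 passed the test. SMC1A (ENSG00000072501, chromosome X from 53401070 to 53449677) had 16245 and 14079 reads in shNT and 14079 and 10876 reads in KD cells. KD replicate 1 was level with shNT replicate 2, and the log2 fold change of -0.28 ± 0.15 (SE) did not pass the test (FDR 0.149). Its partner SMC3 (ENSG00000108055, chromosome 10 from 112327442 to 112365806) had 6651 and 6544 reads in shNT and 5059 and 4375 reads in KD cells. The groups of SMC3 were apart, but with a log2 fold change of -0.48 ± 0.10 (SE, FDR 0.0102) the gene stayed just outside the threshold. Rerun here, edgeR's exactTest, the kind of test that the study used, called SMC3 lower with an FDR of 0.000597. DESeq2 called it lower too, with an adjusted p of 0.000756. RAD21, the kleisin that separase cleaves at anaphase, had 21468 and 24077 reads in shNT and 15231 and 16825 reads in KD libraries. The KD libraries lay under both shNT libraries and the log2 fold change was -0.51 ± 0.11 (SE, FDR 0.00931). RAD21 (ENSG00000164754) lies on chromosome 8 of GRCh37 from 117858173 to 117887015. Its call did not hold without shNT replicate 1 (FDR 0.0222), shNT replicate 2 (0.0745) or shYEATS2 replicate 1 (0.0174), nor with scaling by library totals, where the log2 fold change was -0.39 with an FDR of 0.0253. Scaling by the upper quartile (FDR 0.0117) and a filter at a mean count of 100 (FDR 0.0103) also ended it.

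The 95% confidence intervals place the complexes beside each other. They ran from -1.97 to -1.30 for SMC4, from -1.54 to -1.11 for NCAPG, from -1.55 to -0.90 for NCAPH and from -1.52 to -0.87 for NCAPG2 on the log2 scale. These 4 lay wholly below the intervals of the cohesin genes, which were -0.63 to 0.06 for SMC1A, -0.73 to -0.23 for SMC3 and -0.76 to -0.25 for RAD21. The intervals of SMC2, NCAPD2 and NCAPD3 overlapped with at least 1 of them.

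Ratios of reads within a library do not depend on library scaling. The reads of SMC2 and SMC4 together were 1.04 and 1.18 times those of SMC1A and SMC3 in control cells, and 0.55 and 0.513 times after knockdown. Both KD ratios lay below both shNT ratios, and since these are sums of reads not divided by length, they compare the groups and not the levels of the genes. The log2 ratio fell by 1.06. An exact permutation test over the 4 libraries (two-sided) gave p = 0.333, the smallest p that 2 libraries against 2 allow, so this design cannot reach 0.05, and p = 1 after Benjamini-Hochberg adjustment over the 3 ratios tested. The reads of NCAPD2, NCAPG and NCAPH of condensin I were 3.45 and 3.84 times those of NCAPD3 and NCAPG2 in shNT and 3.36 and 4.70 times in KD libraries. The groups overlapped (exact permutation test, p = 1). RAD21 stood at 0.938 and 1.17 times the reads of SMC1A and SMC3 in shNT and at 0.796 and 1.10 times in KD libraries, again with overlap (exact permutation test, p = 0.667).

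**Figure D3:**
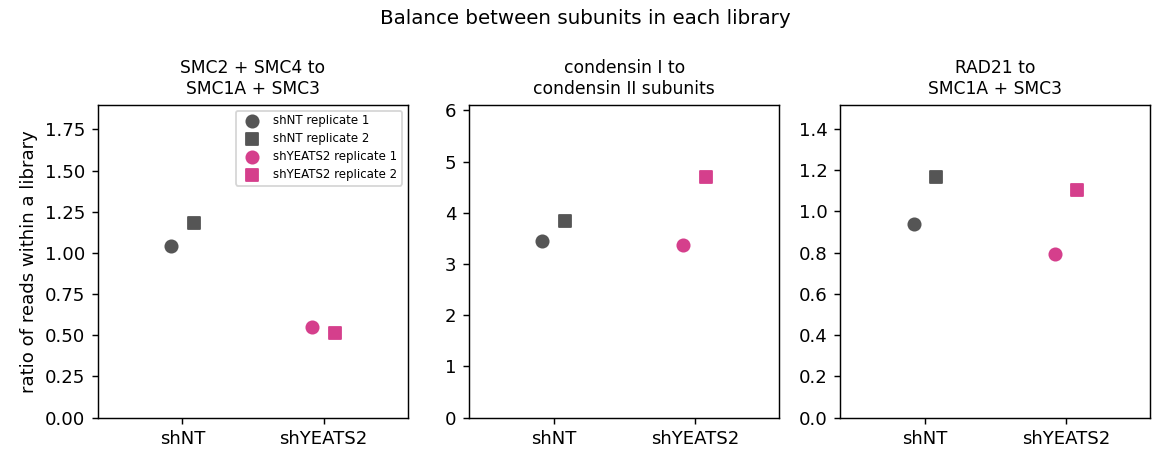
Ratios of deposited reads within each library, for condensin to cohesin ATPases, condensin I to condensin II subunits, and RAD21 to the cohesin ATPases, with axes that start at 0. Only the first ratio separates the groups, at 1.04 and 1.18 in shNT against 0.55 and 0.513 in shYEATS2 libraries.

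Around the core subunits, 34 related genes were looked up and 32 were in the table. Of these, 15 were called lower and 1 higher, beside the 12.5% and 12.9% of all genes, and their median log2 fold change was -0.43. Of the remaining cohesin subunits, STAG1 and STAG2, the HEAT-repeat proteins that bind RAD21, did not pass the test. STAG2 had 7228 ± 164 reads in shNT and 6643 ± 105 reads in KD cells (SD, n = 2), a log2 fold change of -0.12 with a 95% interval from -0.33 to 0.09. STAG1 had 2961 ± 48.5 and 2870 ± 78.8 reads (SD, n = 2), and its interval ran from -0.26 to 0.17. Of the annotated exon bases of STAG1, 21.18% are shared with PCCB on the other strand. STAG3, the meiotic form, fell from 3229 ± 72.2 to 1609 ± 470 reads (SD, n = 2), with a log2 fold change of -1.01 and an FDR of 0.00611. It is uncertain because 25.25% of its annotated exon bases are shared with neighbouring genes and its reads can be shared with partial copies. Of these, STAG3L4 rose (log2 fold change 1.20, FDR 0.002), while STAG3L1, STAG3L2, STAG3L3 and STAG3L5P had values of 0.07, 0.19, 0.10 and -0.03 and did not pass the test. SMC1B, the other meiotic subunit in the table, had 91.5 and 79.2 reads in shNT and 142 and 107 reads in KD libraries. Its log2 fold change of 0.54 did not pass the test (FDR 0.103).

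Of the 6 cohesin loading, release and boundary factors, 1 was called higher and none lower, where 12.9% and 12.5% of all genes were, so these counts are near the background. NIPBL, the loader, had 4967 and 4982 reads in shNT and 5112 and 5099 reads in KD cells, and its log2 fold change of 0.04 had a 95% interval from -0.17 to 0.25. MAU2, which forms the loader with NIPBL, rose from 2181 ± 72.2 to 3330 ± 49.7 reads (SD, n = 2), a log2 fold change of 0.61 with an FDR of 0.00317. Without shNT replicate 1 or 2 its FDR was 0.015 or 0.0212. PDS5B, a regulator of cohesin release, had a log2 fold change of -0.44 and an FDR of 0.0101, and PDS5A, WAPAL (the releasing factor WAPL) and CTCF had values between -0.15 and 0.13 that did not pass the test.

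Of 8 genes that set, protect or cut sister chromatid cohesion, 6 were called lower, where 12.5% of all genes were. ESCO2, the S-phase acetyltransferase of SMC3, had 1400 and 1262 reads in shNT and 661 and 393 reads in KD libraries. That is a log2 fold change of -1.34 with an FDR of 0.00465, whereas ESCO1, which acetylates SMC3 through interphase, had 0.26 with an FDR of 0.0776. CDCA5 (sororin), which stabilises acetylated cohesin, fell by 1.22 on the log2 scale with an FDR of 0.00196. HDAC8, the SMC3 deacetylase, did not pass the test and had 871 ± 19.4 and 868 ± 34.5 reads (SD, n = 2). All 4 genes of cohesin cleavage and protection were lower. These were SGOL2 (-1.42, FDR 0.000793) and SGOL1 (-1.07, FDR 0.0013), the shugoshins that protect centromeric cohesin, ESPL1 (-1.37, FDR 0.000793), which encodes separase, and PTTG1 (-0.91, FDR 0.00202), which encodes its inhibitor securin.

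**Figure D4:**
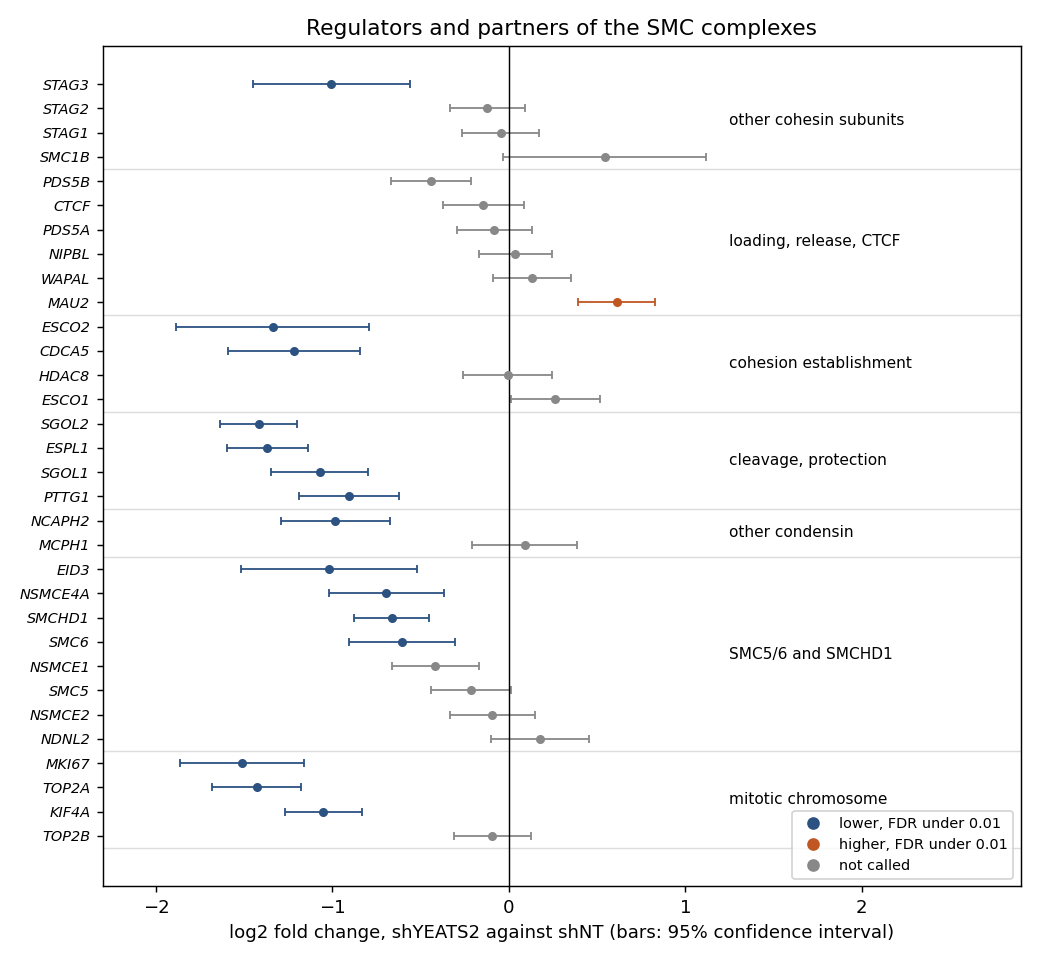
Log2 fold changes of the 32 related genes with 95% confidence intervals, grouped by role and coloured by the call at an FDR under 0.01. The intervals of STAG1, STAG2, NIPBL, PDS5A, WAPAL and CTCF include 0, whereas those of MAU2 (0.39 to 0.83) and PDS5B (-0.67 to -0.21) do not. The values of the cleavage and protection genes all lie between -1.42 and -0.91.

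A group of 8 genes held those of the SMC5/6 complex, which acts in DNA repair, and SMCHD1, which is not part of it. Of these 8, 4 were called lower, SMCHD1 among them, where 12.5% of all genes were. SMC6 fell from 3800 ± 29.7 to 2499 ± 397 reads (SD, n = 2), with a log2 fold change of -0.60 and an FDR of 0.00898, while SMC5 had -0.21 and did not pass the test (FDR 0.104). NSMCE4A (-0.69, FDR 0.00756) and its germline paralog EID3 (-1.02, FDR 0.00868, with at most 170.3 reads) were lower. The calls of SMC6, NSMCE4A and EID3 were lost with either shNT library left out, with FDR values from 0.0212 to 0.0639, and SMC6 and NSMCE4A were also lost without shYEATS2 replicate 2, at 0.0164 and 0.0127. EID3 was lost without either KD library too, at 0.0137 and 0.0256. With scaling by library totals the FDR was 0.0169 for SMC6, 0.0130 for NSMCE4A and 0.0139 for EID3. SMCHD1, an SMC protein of X inactivation and gene silencing, fell by 0.66 on the log2 scale (FDR 0.0023), and without shNT replicate 1 its FDR was 0.0131. Of the genes that build the mitotic chromosome alongside condensin, topoisomerase TOP2A (-1.43), the Ki-67 gene MKI67 (-1.51) and the chromokinesin KIF4A (-1.05) were lower, with FDR values of at most 0.00114. TOP2B, the form of the enzyme that cells use throughout the cycle, had -0.09 and did not pass the test.

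Cell cycle genes moved with the condensin genes. All 32 genes of a mitosis and spindle checkpoint list were called lower, with a median log2 fold change of -1.28, and 17 of 23 replication licensing genes were, with a median of -1.22, where 12.5% of all genes were called lower. From flow cytometry, the paper reports a G1 arrest after YEATS2 knockdown. The part of the cell cycle in the condensin values was not tested. The 7 condensin values, from -1.64 to -0.71, lay within the range of the mitosis list, which ran from -2.11 to -0.61, while the 3 cohesin values lay above its upper end.

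Levels between genes can be compared only per length. In shNT cells, on a scale of CPM (reads relative to the effective library size) per kilobase of the canonical transcript, RAD21 (171 ± 13.8) and NCAPD2 (166 ± 15.5) were the highest of the 10, with overlapping libraries. They were followed by SMC4 (84.5 ± 3.72), NCAPG (47.8 ± 1.24), SMC1A (42.9 ± 4.33), SMC2 (38.7 ± 1.89), NCAPG2 (38.2 ± 0.594) and SMC3 (32.8 ± 0.376), all SD with n = 2. The libraries of SMC1A and SMC2 overlapped, as did those of SMC2 and NCAPG2. NCAPD3 (20.1 ± 0.439) and NCAPH (13.6 ± 0.311) were lowest. In KD cells SMC1A (35.3 ± 6.4) came above SMC4 (27.2 ± 4.91), which was the reverse of their order in shNT cells, and the lower SMC1A library (30.8) was level with the higher SMC4 library (30.7). When all annotated exons of a gene were counted as its length, a choice added after seeing the data, RAD21 had 43.5 and stood in place 4 among these genes with NCAPH2, STAG1 and STAG2, and SMC3 had 11.7 and stood in place 11, so the order depends on the transcript assumed.

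The KD replicates were further apart than the shNT replicates for most subunits. KD replicate 2 was below replicate 1 in 8 of the 10 genes, and the exceptions were RAD21 and NCAPD2, whereas 50.6% of all genes were lower in replicate 2. The larger KD value was at most 1.41 times the smaller, for SMC2, against at most 1.15 times between shNT libraries. The genes outside all lists whose profile over the 4 libraries was nearest to the mean of the 8 called subunits, by Euclidean distance of centred log2 CPM, were INTS8, HMGN4, CHUK, CEP55 and RECQL4. Their log2 fold changes lay between -1.07 and -1.02, and with 4 libraries in 2 groups such likeness holds little beyond the size of the change.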

How the data were processed

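RNA was sequenced from H1299 cells with 2 shNT and 2 shYEATS2 libraries, which the labels assign to groups and replicate numbers. Per the paper's methods the authors' mapper was the RNA-Seq unified mapper, with hg19 as the genome, whereas the submitters' processing notes list TopHat2 (2.0.10). Reads were counted per gene by the authors with HTSeq (0.6.1p1). The deposited values are raw read counts per gene, and the annotation is not given in the sources used here. The table's columns of fold changes, p-values and FDR values from the authors' own edgeR comparison were not used, and the ChIP-seq samples were not analysed here. The members and gene lists were chosen with earlier results of these data known. The genes named were all members, YEATS2, related genes past the FDR threshold or completing a complex, and the 5 nearest profiles. Related genes that did not pass (ESCO1, HDAC8, NIPBL, PDS5A, PDS5B, WAPAL, CTCF, MCPH1, SMC1B, SMC5 and TOP2B) and the overlapping or duplicated neighbours were named after their values were seen.

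A gene needed 10 or more reads in 2 or more libraries, a filter passed by all 12676. The test was the quasi-likelihood test of edgeR (version 4.0.16, in R 4.3.3) with TMM scaling, across all genes and without a replicate block. The standard error is the absolute log2 fold change divided by the square root of the F statistic. The tests were checked on simulated data. Alternatives were DESeq2 (1.42.0), exactTest, limma-trend (limma 3.58.1), other scalings and filters, an FDR under 0.05, a replicate block and each library left out. The typical biological coefficient of variation was 0.107 and the median standard error 0.123. Ensembl identifiers matched the GRCh37 version of GENCODE v44 for 98.3% of genes and all 10 members. Python 3.11.15 was used for tables and figures.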

Additional observations from a re-analysis of the deposited data

How the results depend on the processing

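Across 14 alternatives, 6 to 9 of the 10 subunit genes and 11 to 17 of the 32 related genes were called lower, and no subunit gene changed direction. Of 140 single values for the 10 genes, 124 stayed on their side of the threshold, 8 lost a call and 8 gained one. All 8 gains were of SMC3, and the losses were in RAD21, NCAPD2 and NCAPD3. The median log2 fold change of the 10 genes lay between -1.12 and -0.77, with a library left out between -1.12 (without shYEATS2 replicate 1) and -0.80. YEATS2 stayed called, between -2.74 and -2.62 with a library left out.

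Over all genes, exactTest called 2497 lower and 2596 higher, and an FDR under 0.05 gave 3011 and 3093. With a replicate block 2715 genes were lower and 2742 higher, and SMC3 was called. The labels give the libraries only a shared number, and the deviations of same-numbered libraries correlated at 0.40 across 12676 genes. No source says that a number marks a shared culture or day, so the block served only as an alternative. With 1 library left out, where the lone library is assumed to vary like the others, 850 to 2024 genes were lower and 775 to 1971 higher, and between 0 and 1 of the related genes were higher. The cause of these differences in number was not tested.

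The fall of the log2 ratio of condensin to cohesin ATPases was -0.96 with mean log2 reads in place of sums, and between -1.15 and -0.98 with a library left out. The ratio of condensin I to condensin II turned from 0.13 to -0.10 with mean log2 reads and ranged from -0.11 to 0.37 with a library left out. That of RAD21 to the cohesin ATPases ranged from -0.39 to 0.076, the latter without shYEATS2 replicate 1. Each subunit gene had 1265 to 28681 reads per library, and the spread rests on 2 libraries a group.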
